A study of Malus domestica with 6 samples.

Results

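The sugar carrier genes described here are MD10G1080100, described as polyol/monosaccharide transporter 5, and MD10G1045900, described as sucrose-proton symporter 2. Both IDs lie on chromosome 10, and they are 2 of the 52311 genes quantified in the series. They were selected on their measured TPM and read values, which were higher in red flesh than in white flesh in these same libraries, so that difference is given as a description without a test. Messenger RNA of the mesocarp, which is the part of the fruit that is eaten, was sequenced in a red-flesh apple, cv. 'R201', at 84 days after full bloom. There were 3 libraries of red flesh (RF) and 3 of white flesh (WF), lettered A to C in both groups. Per the study, the replicates were semi-biological, from fruits of different trees. RF and WF of a letter were taken to share their fruits, which the sample titles do not state. RF lay on the outer side of the cortex and WF on the inner side, per the study, and therefore flesh colour and position cannot be told apart. All libraries came from 1 cultivar and 1 stage.

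Sorbitol and sucrose are the sugars that apple leaves export through the phloem to the fruit. Polyol/monosaccharide transporters are membrane proteins that carry sugar alcohols such as sorbitol, and also monosaccharides, together with protons, and sucrose-proton symporters move sucrose in the same way. In Arabidopsis, polyol/monosaccharide transporter 5 accepts a broad range of polyols and hexoses, and sucrose-proton symporter 2 loads sucrose into the phloem in companion cells. The substrates of the apple genes were not measured here, and their descriptions rest on likeness to Arabidopsis proteins.

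Library totals ranged over 25540845 to 25959371 estimated reads in RF and 25536185 to 26050906 in WF. Of the 28610 genes tested, 1740 were called higher and 1340 lower in RF by edgeR's quasi-likelihood test, at a Benjamini-Hochberg adjusted p under 0.05. The median log2 fold change of all genes tested was -0.0045. Scaling between libraries (TMM) itself centres most genes near 0, so this median cannot show a shift of all genes. In whole tissue, fewer cells of a type and less RNA per cell cannot be told apart.

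The transcript of MD10G1080100 was abundant in RF and moderately abundant in WF. It had 67.4, 62.6 and 53.2 TPM in RF libraries A, B and C, against 16.5, 17.2 and 18.5 TPM in WF libraries A, B and C. TPM is a transcript's abundance per length, scaled to the same total in every library. The groups did not overlap, and the lowest RF library stood well above the highest WF library. The mean was 61.1 ± 7.21 TPM in RF and 17.4 ± 1.03 TPM in WF (SD, n = 3 each). These levels rested on 2657, 2473 and 2154 estimated reads in RF, against 664, 689 and 756 in WF. The order of the letters differed between the flesh types, since letter A was the highest in RF and the lowest in WF. The RF over WF ratio of TPM within a letter was therefore largest in A, at 4.09, followed by 3.64 in B and 2.88 in C.

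MD10G1045900 was a much less abundant transcript. It had 9.55, 6.66 and 8.52 TPM in RF libraries A, B and C, against 4.57, 3.55 and 3.74 TPM in WF libraries A, B and C. The groups again did not overlap, which the choice of both carrier genes on these values favoured. The share of all genes without overlap is not given here, so its absence is description only, for these and later genes. The mean was 8.24 ± 1.46 TPM in RF and 3.95 ± 0.54 TPM in WF (SD, n = 3 each). The estimated reads were 362, 253 and 331 in RF, against 177, 137 and 147 in WF, so that counting error was larger than for MD10G1080100. In this gene letter A was the highest and letter B the lowest in both flesh types, and the RF over WF ratios of TPM lay close together, at 2.09 in A, 1.88 in B and 2.28 in C.

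**Figure D1:**
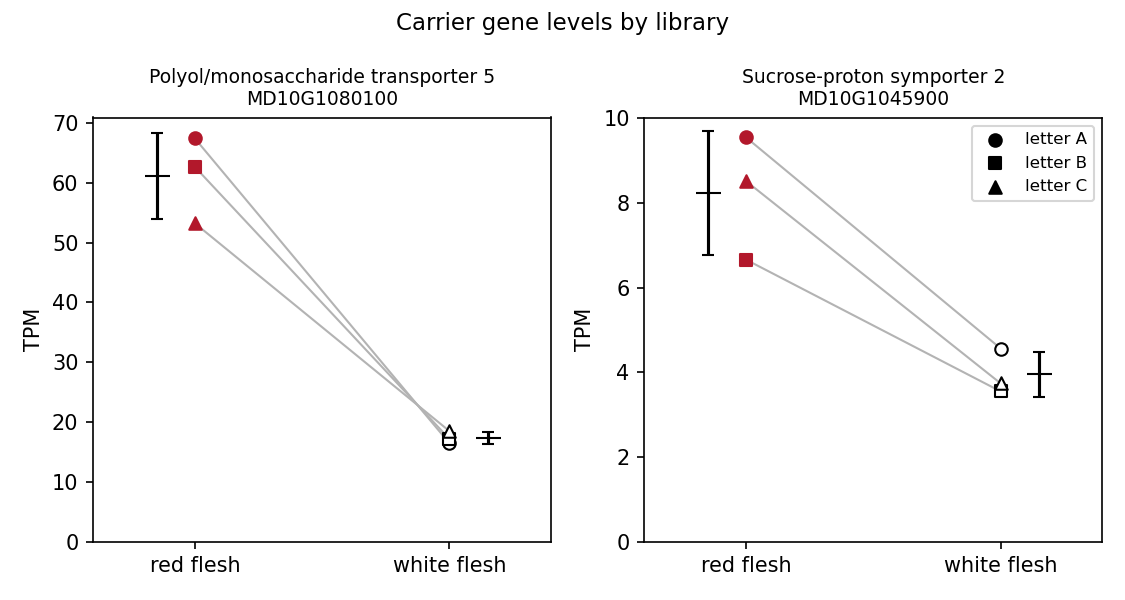
TPM of MD10G1080100 (left panel) and MD10G1045900 (right panel) in each library of red and white flesh. Lines join libraries of the same letter, and bars beside the points give the mean ± SD of 3 libraries. The red-flesh libraries sit at 53.2 to 67.4 TPM for the transporter and 6.66 to 9.55 TPM for the symporter, all above the white-flesh libraries.

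On the edgeR scale the RF over WF log2 fold change was 1.81 for MD10G1080100 (standard error 0.09) and 1.06 for MD10G1045900 (standard error 0.15). Both genes were among the calls higher in RF, beside 6.08% of all genes tested, which is what their choice required. In a list of the 28610 genes from the highest fold change down, MD10G1080100 stood at place 115 and MD10G1045900 at place 408. Many of the genes above them had few reads. Among the 19502 genes with a mean of at least 100 counts, the places were 24 and 126.

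Spread between libraries of 1 group was wider than usual for both genes in RF. The SD of log2(CPM + 1) was 0.18 in RF and 0.09 in WF for MD10G1080100, and 0.26 in RF and 0.16 in WF for MD10G1045900. The median over all genes tested was 0.10 in either flesh type. The added 1 narrows the spread of genes with few reads, and these are part of that median. The mean log2 ratio of TPM over the letters was 1.81 ± 0.26 for the transporter and 1.05 ± 0.14 for the symporter (SD, n = 3 letters), so the symporter varied less between letters as a ratio than as a level in RF.

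Ranked by TPM within a library, the transporter stood above 89.6% to 92.1% of the genes with any signal in RF, and above 70.7% to 73.1% in WF. The symporter stood above 51.0% to 59.2% of those genes in RF and above 39.5% to 43.9% in WF. MD10G1080100 exceeded MD10G1045900 in all 6 libraries. The transporter over symporter ratio of TPM was 7.06, 9.40 and 6.25 in RF libraries A, B and C, against 3.61, 4.84 and 4.95 in WF libraries A, B and C. The summed TPM of both genes was 76.9, 69.3 and 61.7 in RF, against 21.04, 20.7 and 22.2 in WF, and the transporter made up most of it in both.

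Of the other 3 genes described as polyol/monosaccharide transporter 5, 1 was called higher, 1 lower and 1 was not called, beside 10.8% of all genes tested called in either direction (6.08% higher and 4.68% lower). Nearly all descriptions behind this list and the lists that follow were taken from genes that the study had called on these samples, so none of these counts is independent evidence of direction. MD10G1080000, which precedes MD10G1080100 in the order of IDs, rose in RF. It had 7.29, 7.17 and 8.81 TPM in RF, against 3.39, 2.29 and 4.63 TPM in WF. The groups did not overlap, and the log2 fold change was 1.17 (standard error 0.20, adjusted p = 0.0037 by edgeR).

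MD10G1079700, which stands 4 places before MD10G1080100, went the other way. It had 18.8, 20.5 and 20.5 TPM in RF, against 29.3, 26.6 and 21.2 TPM in WF. RF and WF were nearly equal in letter C, where the RF over WF ratio was 0.97, against 0.64 in A and 0.77 in B. The log2 fold change was -0.37 (standard error 0.10, edgeR adjusted p = 0.0388). The call was lost without RF A, RF B, RF C, WF A or WF B in turn, at adjusted p from 0.0835 to 0.142. With the letters as a replicate block it was kept (edgeR adjusted p = 0.00865). MD02G1046300, on chromosome 2, had 4.46 ± 0.67 TPM in RF and 4.92 ± 0.26 TPM in WF (SD, n = 3 each), with overlapping groups and an edgeR adjusted p of 0.574.

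The shares of the 4 genes in the transporter 5 transcripts are given as a description, since a larger share of MD10G1080100 in RF follows from its choice. MD10G1080100 gave 70.03%, 67.5% and 63.3% of the summed estimated counts of the 4 genes in RF libraries A, B and C, against 31.9%, 35.6% and 39.3% in WF libraries A, B and C. The exact 95% binomial (Clopper-Pearson) intervals of these shares spanned 61.6% to 71.5% over the RF libraries and 29.9% to 41.5% over the WF libraries. Such intervals give the precision of each share for counting error only and are no test of the difference. MD10G1079700 held 20.6% ± 2.27 of the counts in RF and 49.1% ± 5.97 in WF (SD, n = 3 each), and so was the leading transcript of the 4 in WF alone.

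The sum over the 4 genes was 93.2 ± 6.27 TPM in RF and 51.5 ± 2.56 TPM in WF (SD, n = 3 each). Without MD10G1080100, the other 3 genes summed to 30.98 to 33.02 TPM in RF and 30.8 to 37.8 TPM in WF, and these ranges overlapped. The higher sum in RF thus lay in MD10G1080100. These genes may share reads. The estimated reads of MD10G1080100 were not whole (by more than 0.0005) in 6 of 6 libraries, against 5 of 6 for MD10G1079700, 3 of 6 for MD10G1080000 and 1 of 6 each for MD02G1046300 and MD10G1045900. The largest distance from a whole number was 0.47 of a read, but reads divided into near-whole parts would not show in this way.

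**Figure D2:**
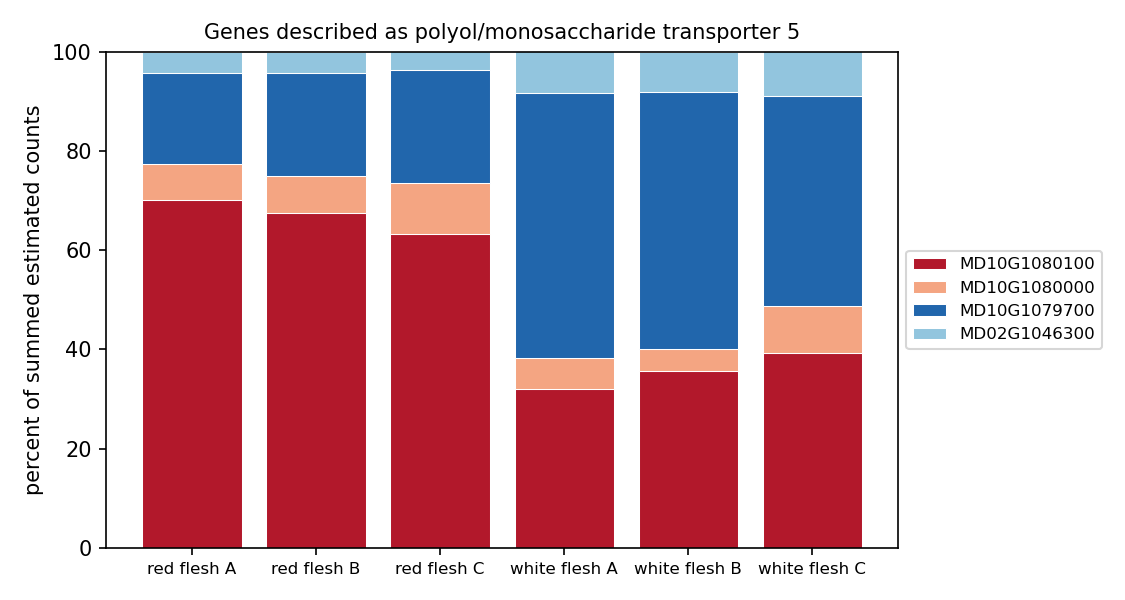
Share of each of the 4 genes described as polyol/monosaccharide transporter 5 in their summed estimated counts, in percent, for each library. MD10G1080100 takes 63.3% to 70.03% in red flesh and 31.9% to 39.3% in white flesh, where MD10G1079700 is the largest part.

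Within 5 places of either carrier gene in the order of IDs, none of the genes without a description was called. Those that could be tested had log2 fold changes from -0.35 to 0.52.

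All 4 described carriers of monosaccharides were called, 3 higher and 1 lower in RF, beside 6.08% and 4.68% of all genes tested. Sugar transporter 1, in Arabidopsis a plasma membrane symporter of hexoses and protons, was the most abundant of the 9 carriers in both flesh types. This gene, MD10G1304000, had 158, 120.2 and 145 TPM in RF, against 90.9, 77.6 and 92.6 TPM in WF. Its log2 fold change was 0.70 (standard error 0.11, edgeR adjusted p = 0.0019). MD15G1158200, sugar transporter protein 7 of the same family, rose by 0.48 on the log2 scale in RF (edgeR adjusted p = 0.00799). MD15G1193400, sugar transporter 14, had a log2 fold change of 0.24 (edgeR adjusted p = 0.0314), and this call was lost without any 1 of RF A, RF B, RF C, WF A and WF B (adjusted p from 0.0572 to 0.152). With the letters as a replicate block the call was kept (edgeR adjusted p = 0.00678).

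The tonoplast monosaccharide transporter 2 gene, MD05G1139800, moved against the other 3. In Arabidopsis such proteins load hexoses into the vacuole. It had 8.64 ± 0.44 TPM in RF and 10.6 ± 0.27 TPM in WF (SD, n = 3 each), a log2 fold change of -0.30 (edgeR adjusted p = 0.00948). By mean TPM, MD10G1080100 was second of the 9 carriers in RF, after MD10G1304000, and did not overlap with either neighbour in that order. In WF it was the fifth, and its libraries overlapped with those of MD15G1158200, the next above it. MD10G1045900 was seventh in RF and eighth in WF. It overlapped with MD05G1139800 and MD10G1080000, its neighbours, in RF, and with MD10G1080000 in WF.

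**Figure D3:**
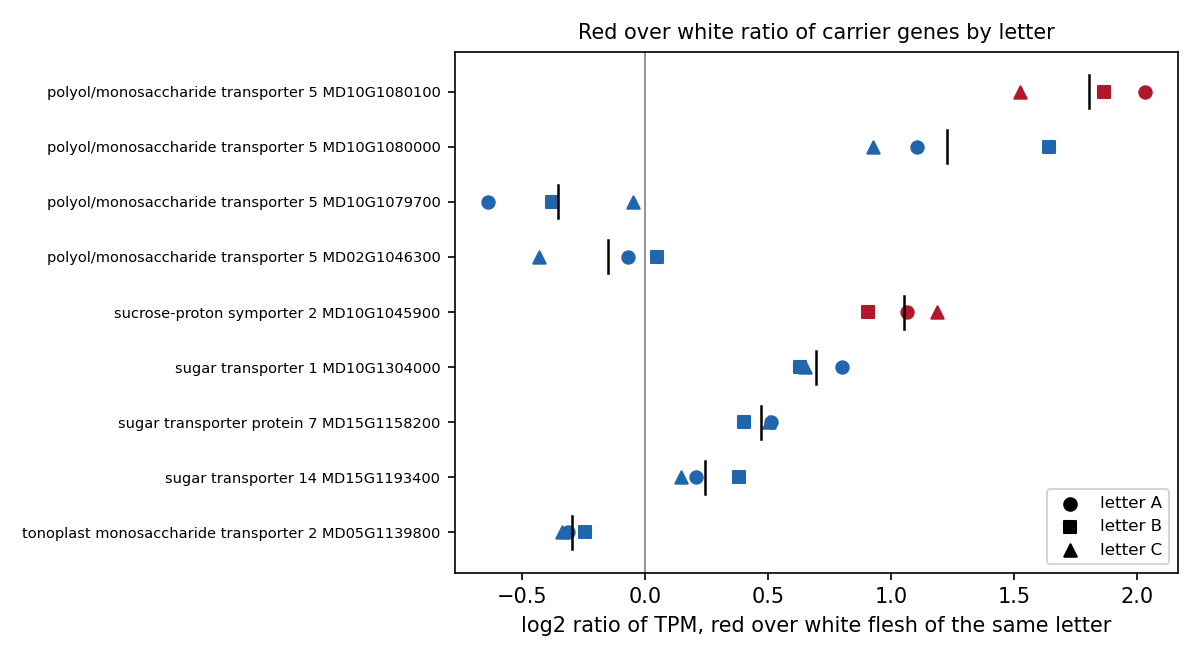
Log2 ratio of TPM, red over white flesh of the same letter, for 9 described carrier genes. Points are letters and the vertical mark is their mean. MD10G1080100 lies farthest to the right, MD10G1045900 near the transporter 5 gene MD10G1080000, and 3 genes have means below 0.

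Proton symport draws on the gradient that plasma membrane proton pumps build. The described pump, H(+)-ATPase 1 (MD13G1247200), had 14.1, 6.64 and 10.7 TPM in RF, against 4.90, 1.91 and 2.01 TPM in WF. The groups did not overlap, and the RF over WF ratio was 2.87 in A, 3.48 in B and 5.32 in C. The log2 fold change was 1.84 (standard error 0.34, edgeR adjusted p = 0.00569). With robust dispersion estimation in edgeR, chosen after seeing the data, the adjusted p was 0.124 and the call was lost.

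All 5 genes listed as plastid sugar-phosphate translocators were called higher in RF, beside 6.08% of all genes tested. Their log2 fold changes ran from 0.28 to 0.78. Glucose-6-phosphate/phosphate translocators bring glucose 6-phosphate into plastids. All of the 5 but MD10G1316100 were described only as related to them, and what they carry was not measured. The largest change was that of MD06G1172800, at 7.35 ± 0.66 TPM in RF and 4.29 ± 0.69 TPM in WF (SD, n = 3 each, edgeR adjusted p = 0.00375). Glucose-6-phosphate/phosphate translocator 2 (MD10G1316100) was far more abundant, at 258 ± 21.9 TPM in RF and 177 ± 5.08 TPM in WF (log2 fold change 0.54, edgeR adjusted p = 0.000971). MD10G1289000 rose by 0.46 on the log2 scale. The call of MD05G1310100, at 0.31, was lost without any 1 of RF A, RF B, RF C, WF A and WF B (edgeR adjusted p from 0.079 to 0.166). That of MD14G1178800, named after its values were seen, at 0.28, was lost without RF A, RF C, WF B or WF C (edgeR adjusted p from 0.0587 to 0.105).

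Of 9 genes of sucrose and hexose metabolism, 8 passed the filter on low counts, of which 5 were called higher, 2 lower and 1 was not called, beside 6.08% higher and 4.68% lower of all genes tested. Their median log2 fold change was 0.24, and 5 of the 7 calls were lost on leaving out single libraries. Hexokinase-like 1 (MD03G1170700), which in Arabidopsis lacks the enzyme activity of hexokinase, rose by 0.72 on the log2 scale (edgeR adjusted p = 0.000639). An aldose 1-epimerase gene (MD17G1023600), whose product interconverts ring forms of sugars, fell by 0.42 (edgeR adjusted p = 0.00327). A pfkB-like carbohydrate kinase gene (MD09G1262800), of the family that includes fructokinases, had 0.31 and lost its call without RF B, RF C or WF B (edgeR adjusted p from 0.0647 to 0.109). Sucrose phosphate synthase 1F (MD15G1164900), an enzyme of sucrose synthesis, had 0.27 and lost its call without RF A, RF C, WF A or WF B (edgeR adjusted p from 0.114 to 0.176).

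Genes of starch synthesis and breakdown went both ways, 4 higher, 4 lower and 1 not called of 9 tested, beside 6.08% higher and 4.68% lower of all genes tested. Their median log2 fold change was 0.04, and 5 of the 8 calls were lost on leaving out single libraries. Beta-amylase 3 (MD16G1175300), which in Arabidopsis releases maltose from starch in plastids, rose by 0.46 on the log2 scale (edgeR adjusted p = 0.00788). ADP glucose pyrophosphorylase large subunit 1 (MD13G1186100), of the enzyme that makes the precursor of starch, had a log2 fold change of 1.81 at only 1.18 ± 0.36 TPM in RF and 0.33 ± 0.29 TPM in WF (SD, n = 3 each). Its call was lost without RF A, RF B, WF A or WF B (edgeR adjusted p from 0.066 to 0.108). An alpha-amylase-like 3 gene (MD09G1066000) at 0.59 and a starch synthase gene (MD01G1218000) at -0.46 lost their calls without RF A (edgeR adjusted p = 0.0572 and 0.066). A second alpha-amylase-like 3 gene (MD13G1078600), named after its values were seen, was far more abundant than MD09G1066000 and went the other way. It had 339 ± 14.6 TPM in RF and 417 ± 19.6 TPM in WF (SD, n = 3 each). Its log2 fold change was -0.30 (edgeR adjusted p = 0.0217), and its call was lost without RF A, RF C or WF C (adjusted p from 0.0502 to 0.0936).

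Sorbitol that enters fruit cells is oxidised to fructose by sorbitol dehydrogenase, a member of the family of zinc-binding GroES-like dehydrogenases. The descriptions do not say which genes encode that enzyme. All 6 genes described as of this family rose in RF, beside 6.08% of all genes tested, with log2 fold changes from 0.43 to 1.92. Their summed level was 3119 to 3488 TPM in RF and 2039 to 2354 TPM in WF. The largest change was in a minor transcript, MD01G1195100, at 4.67 ± 1.4 TPM in RF and 1.24 ± 0.18 TPM in WF (SD, n = 3 each, edgeR adjusted p = 0.00122). MD01G1195200 was abundant, at 748 ± 77.5 TPM in RF and 470 ± 33.4 TPM in WF (log2 fold change 0.67, edgeR adjusted p = 0.000735). MD00G1005600 rose by 0.90 and MD06G1121600 by 0.76 on the log2 scale. Members of this family have other functions too, and similar copies may share reads.

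Sorbitol is made by a reductase of the NAD(P)-linked oxidoreductase superfamily, again not told apart by the descriptions. Of 5 such genes, 2 were called higher, 2 lower and 1 was not called, beside 6.08% higher and 4.68% lower of all genes tested. Both higher calls were lost on leaving out single libraries. MD16G1101500 fell by 0.46 and MD02G1264100 by 0.39 on the log2 scale in RF (edgeR adjusted p = 0.00232 and 0.00511). MD09G1146100 had a log2 fold change of 0.93 (edgeR adjusted p = 0.013), and lost its call without RF A (adjusted p = 0.0521). MD12G1239800, named after its values were seen, had 0.27 and lost its call without RF A, RF B or WF B (edgeR adjusted p from 0.061 to 0.0893). MD12G1239000 had 0.35 and was not called (edgeR adjusted p = 0.113), but was called with the letters as a replicate block (adjusted p = 0.00138) and by DESeq2 (adjusted p = 0.0489).

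**Figure D4:**
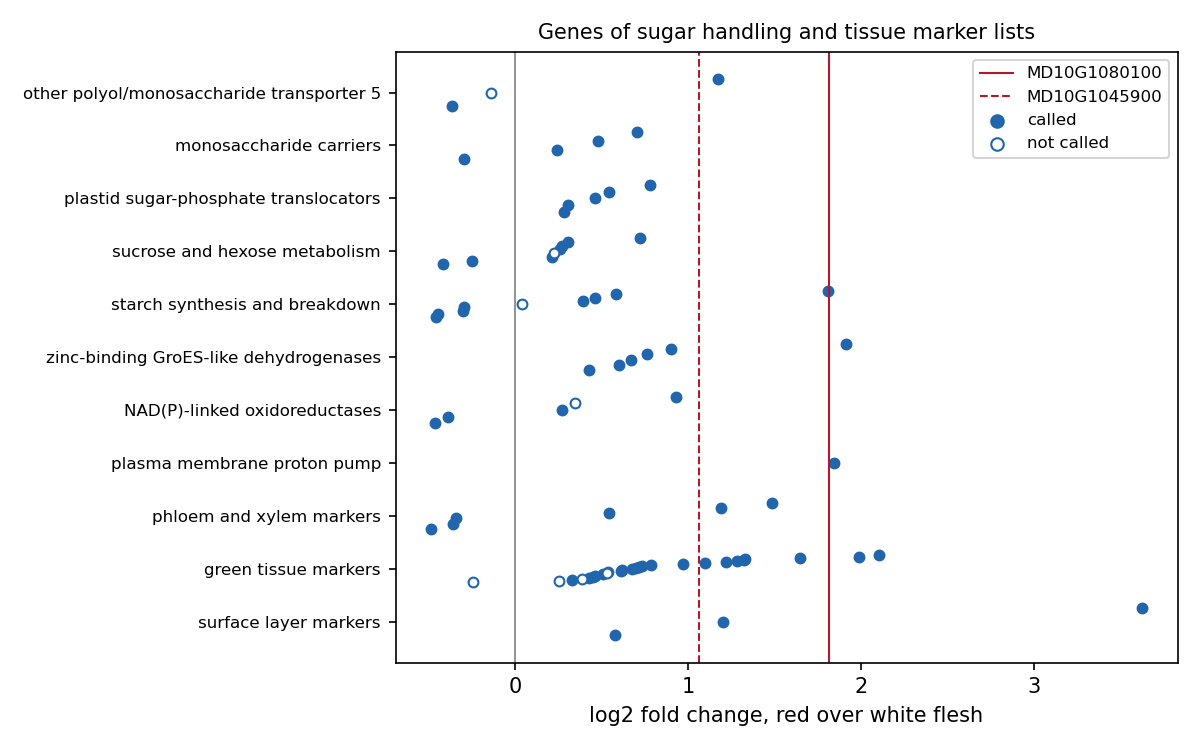
Log2 fold changes, red over white flesh, of the tested genes in each list of sugar handling genes and tissue markers. Filled points were called by edgeR at an adjusted p under 0.05 and open points were not. Vertical lines mark MD10G1080100 at 1.81 and MD10G1045900 at 1.06, to the right of most genes of carriers and sugar metabolism.

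Genes listed as markers of phloem and xylem went both ways, whereas those of green tissue and of surface layers were mostly higher in RF. Of the 6 genes listed for phloem and xylem, 3 were called higher and 3 lower in RF. These counts stood beside 6.08% and 4.68% of all genes tested, and none of the 6 genes was at 0. Their median log2 fold change was 0.10. Their summed level was 1385 to 1557 TPM in RF and 1003 to 1172 TPM in WF, most of it from xylem bark cysteine peptidase 3 (MD05G1300100, log2 fold change 0.54). Xylem serine peptidase 1 (MD07G1206500) rose by 1.49 and phloem protein 2-B15 (MD04G1197700) by 1.19 on the log2 scale (edgeR adjusted p = 0.001 and 0.000157). Of the lower genes, plasmodesmata callose-binding protein 3 (MD06G1202000) bears the name of neither phloem nor xylem. This gene, named after its values were seen, fell by 0.34 on the log2 scale (edgeR adjusted p = 0.00319). It kept its call under every alternative run. Phloem protein 2-A1 (MD05G1254200), also named after its values were seen, had -0.36 (edgeR adjusted p = 0.0269), and its call was lost without RF A, RF B, RF C, WF A or WF B (adjusted p from 0.0587 to 0.089). A second xylem bark cysteine peptidase 3 gene (MD08G1023300) had -0.48, and its call was lost without RF A or WF B (edgeR adjusted p = 0.0526 and 0.0509). The part of vascular tissue in the result was not tested.

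Of 28 genes of green tissue, for photosystems, light harvesting and rubisco, 26 were tested, 22 were called higher in RF, beside 6.08% of all genes tested, and 4 were not called. Leaving out single libraries lost 8 of the 22 calls. Their summed level was 2788 to 2817 TPM in RF and 1629 to 1910 TPM in WF, and 1, MD02G1178900, was listed at 0 in every library. Photosystem I P subunit (MD07G1160900) had a log2 fold change of 2.1, a rubisco small chain 1A gene (MD17G1244400) 1.99 and chlorophyll A/B binding protein 1 (MD10G1265300) 1.33 (edgeR adjusted p = 0.00105, 7.34e-05 and 2.27e-05). A second gene described as chlorophyll A/B binding protein 1 (MD10G1265400), named after its values were seen, was more abundant than the first in both flesh types and lay the other way, at 152 ± 9.07 TPM in RF and 180 ± 14.3 TPM in WF (SD, n = 3 each). Its log2 fold change was -0.24 (edgeR adjusted p = 0.0546). It was called lower in RF by DESeq2, with a minimum mean of 50 counts, with the replicate block, with robust dispersion estimation, and without RF B or WF B (adjusted p from 0.0191 to 0.0498). A second rubisco small chain 1A gene (MD09G1252100) had 1.65 and lost its call without RF A, RF B, WF A or WF B (edgeR adjusted p from 0.0581 to 0.0748). The part of green tissue in the result was not tested.

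All 3 surface layer markers were called higher in RF, beside 6.08% of all genes tested, with a summed level of 35.6 to 63.01 TPM in RF and 18.6 to 22.3 TPM in WF, and none was at 0. Lipid transfer protein 4 (MD12G1187100) had 29.2, 11.5 and 11.7 TPM in RF, against 0.71, 1.49 and 2.01 TPM in WF, a log2 fold change of 3.62 (edgeR adjusted p = 0.00066). It was highest in RF A, the library in which MD10G1080100 and MD10G1045900 were highest too. This was not particular to surface layer markers. Of genes in other lists, MD10G1304000 and MD13G1247200 were also highest in RF A, and others, such as MD17G1244400, were not. The log2 fold changes of the carrier genes without RF A were 1.73 and 0.93. 3-ketoacyl-CoA synthase 10 (MD08G1046600), of wax and lipid synthesis, rose by 1.2 on the log2 scale (edgeR adjusted p = 0.00472). Its level was low, at 1.13 ± 0.15 TPM in RF and 0.49 ± 0.02 TPM in WF (SD, n = 3 each). 3-ketoacyl-CoA synthase 11 (MD15G1178600) had 0.58 and lost its call without RF A or WF B (edgeR adjusted p = 0.0606 and 0.0848) and with robust dispersion estimation (adjusted p = 0.0791). The part of surface layers in the result was not tested.

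The genes whose pattern over the 6 libraries was most like that of each carrier were found by the root mean square difference of log2(CPM + 1), centred on each gene's mean. Among described genes, the nearest to MD10G1080100 were a chalcone synthase family gene (MD04G1003300, difference 0.15), of the entry step of flavonoid synthesis, and xyloglucan endotransglucosylase/hydrolase 8 (MD00G1180100, 0.16). The log2 fold change of MD00G1180100 was larger, at 2.54 against 1.81 for the transporter. It had only 1.08 to 1.55 CPM in WF, where the added 1 narrows differences, so its likeness holds on this scale only. Non-yellowing 1 (MD04G1070300, 0.16), flavanone 3-hydroxylase (MD15G1246200, 0.16) and a zinc-binding dehydrogenase gene (MD01G1046700, 0.17) followed. MD04G1003300 was far more abundant, at 1422, 1361 and 1530.2 TPM in RF, against 410.03, 372 and 459.6 TPM in WF, and its letter ratios of 3.47, 3.66 and 3.33 were more even than those of the transporter.

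The nearest to MD10G1045900 were an alpha/beta-hydrolase gene (MD09G1076700) and SKU5 similar 5 (MD17G1098300), both at a difference of 0.06, an exonuclease gene (MD14G1090000, 0.07) and genes of glycosyl hydrolase family 17 (MD11G1210800, 0.08) and the alpha/beta-hydrolases (MD11G1296000, 0.08). The exonuclease gene had a log2 fold change of 1.98, against 1.06 for the symporter, so a small difference on this scale need not mean a like fold change. None of the 5 genes nearest to one carrier was among the 5 nearest to the other. The carriers' own log2 fold changes differed, at 1.81 and 1.06, which made an overlap on this score unlikely. MD17G1098300 had 17.02, 13.4 and 14.8 TPM in RF, against 8.99, 7.05 and 7.39 TPM in WF. As for the symporter, letter A was the highest and letter B the lowest in both flesh types. These values describe 6 libraries in which RF and WF differ, and any gene with a like difference between them scores well.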

How the data were processed

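For each library the authors deposited a salmon output table, with estimated counts of reads and TPM for 52311 gene IDs. The authors' length and effective length columns (other values, in bases) were used for offsets only. Its version and settings are not stated in the sources used here. IDs have the form of the GDDH13 v1.1 annotation named in the study's methods, and 0 matched the RefSeq table of GDT2T_hap1. Descriptions of 2124 IDs came from the study's supplementary lists, 1940 of them from its list of called genes, held in part. Fold changes and p-values in those lists were not used.

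Estimated counts were rounded, and RF was compared with WF by edgeR 4.0.16 in R 4.3.3 (quasi-likelihood test, TMM, standard expression filter, flesh type as the only term, two-sided p adjusted over 28610 genes). Standard errors came from the fold change and test statistic. P-values measure only the spread between these samples. The script was tested on simulated data. The carrier genes, the 12 lists including the carriers themselves, and the tests were chosen with earlier results of these data known. Named genes were the carriers, every other transporter 5 gene, up to 4 genes a list by size of log2 fold change, the 5 described genes most like each carrier, and undescribed neighbours that were called.

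Letters were taken to pair the samples, on the reading that RF and WF of a letter share their fruits. The sample titles give only flesh type, letter and cultivar. Across 22620 genes, deviations from the group means correlated at 0.40 for letter A, 0.33 for B and 0.30 for C, and at 0.02 or lower between letters. The deviations of a gene sum to 0 within a group, so positive values within letters push those between letters down. That contrast is therefore partly fixed by the centring. Alternatives were the replicate block, DESeq2 1.42.0, its size factors, no filter, effective-length offsets, a minimum mean of 50 counts, leaving out each library and, chosen after seeing the data, robust dispersion estimation.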

Additional observations from a re-analysis of the deposited data

How the results depend on the processing

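The log2 fold change of MD10G1080100 stayed between 1.73 and 1.90, and that of MD10G1045900 between 0.93 and 1.2, under every alternative run. With the letters as a replicate block, 2981 genes were called higher and 2401 lower in RF, against 1740 and 1340 without it. Among the named genes the block changed only the calls of MD12G1239000 and MD10G1265400, which it added. Calls of named genes that were lost on leaving out single libraries were kept with the block. The block was fitted to all libraries, whereas the fits without a library had flesh type as the only term, so the 2 are not alike. Leaving out 1 library at a time gave 939 (without WF B, with 941 without RF A) to 1624 genes called higher, 666 (without RF A, with 705 without WF B and 807 without RF C) to 1523 called lower, and 23 (without RF A) to 32 calls among the carrier and sugar metabolism lists, against 37 with all libraries. No call of a gene in these lists reversed its direction under the alternatives run, and the cause of the lost calls was not tested beyond the smaller number of samples. Depth limits MD10G1045900 more than MD10G1080100, since its WF libraries held 137 to 177 estimated reads. Genes that may share reads, above all the transporter 5 genes, have levels that depend on how the authors' program divided those reads.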
